A study of Homo sapiens with 6 samples.

Results

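The genes described here encode the proteins that choose which exons are kept in an mRNA: the SR proteins and their TRA2 relatives, the hnRNP and PTB proteins, the ESRP, RBFOX and MBNL regulators, and the CLK and SRPK kinases that act on SR proteins. They were taken by symbol, as every probe set annotated with a single gene symbol of these families. The rule found 174 probe sets of 47 genes, out of 19775 genes with a single-symbol probe set on the array. One of the 47 is a pseudogene, HNRNPA3P1, and 1 is a divergent transcript, HNRNPD-DT. SRSF2, SRSF9, ESRP2 and HNRNPH2 were among 12 symbols of the rule read only by probe sets that carry more than 1 symbol. These 12 were not analysed here.

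The RNA came from 76N cells, mammary epithelial cells from normal human breast, grown in DFCI-1 medium. The cultures were transfected with an siRNA against Ecd (n = 3) or with a control siRNA (n = 3), and each was read on 1 Affymetrix array. Ecd is the product of ECD, the human counterpart of the fly gene ecdysoneless, and the comparison asks which transcripts differ when it is depleted. All cultures are of 1 line, and the siRNA sequence, dose and time to harvest are not given in the sources used here. In bulk RNA, fewer cells of a type and less RNA per cell cannot be told apart.

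SR proteins bind exonic enhancers through RNA recognition motifs and recruit the spliceosome through a domain rich in arginine and serine, which CLK and SRPK kinases phosphorylate. Many hnRNPs coat nascent transcripts and often oppose the SR proteins, and PTBP1 silences exons flanked by pyrimidine tracts. ESRP, RBFOX and MBNL proteins set cell type patterns, ESRP1 being the epithelial one. Many SR and hnRNP genes also regulate their own mRNA through alternative exons that expose it to nonsense-mediated decay.

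The targeted transcript was lower. ECD had signals of 588.9, 599.8 and 542.5 in the Ecd siRNA arrays, against 1076.6, 1011.4 and 1007.2 in the control siRNA arrays, so 55.9% of the control mean remained (log2 change -0.82, SE 0.10, limma adjusted p = 0.000177). The exact two-sided permutation p was 0.1, the smallest that 3 against 3 arrays allow. Array medians were 128.7 to 147.6, correlations of log2 signals were 0.968 to 0.972 within groups and 0.957 to 0.966 between groups, and 0 pairs of arrays were identical. The 3' to 5' signal ratio of ACTB, a measure of RNA integrity, was 1.065 to 1.158 in the Ecd siRNA arrays and 1.066 to 1.108 in the control siRNA arrays. All 16 epithelial markers with a probe set of their own were above the filter, KRT5, KRT14 and CDH1 among them, and 6 of 7 immune and endothelial markers were below it.

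More of the splicing regulator transcripts fell than rose after Ecd siRNA. Of the 46 member genes whose brightest probe set was bright enough to test, 18 fell, 4 rose and 24 did not pass the threshold. The threshold was an adjusted p of 0.05 in limma, adjusted over all 14614 genes tested, and the words rose and fell are kept for genes past it. The share called was 47.8%, against 21.2% of all genes tested, where 11.0% fell and 10.1% rose. The members' median log2 change was -0.21, against 0.008 over all genes tested. The 18 falls left between 58.6% and 84.9% of the control mean. The groups did not overlap in 27 of the 46 genes, a share of 58.7%, against 36.5% of all genes tested.

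The count of falls rests on which probe set stands for a gene. Of the 22 genes called, 16 were read by a probe set whose name ends in _s_at or _x_at, which can bind more than 1 transcript. With a probe set without an _s, _x or _a ending in place of it, wherever the gene had one, 8 of 45 members fell and 3 rose. That is 24.4% called, near the 19.5% of all 13729 genes tested in that way, with 17.8% of members and 9.92% of all genes lower. With all single-symbol probe sets of each gene averaged, also those below the filter, 9 of 46 members fell and 3 rose. The share called was then 26.1% against 15.6% of all genes, with 19.6% and 8.38% lower. The contrast of 47.8% with 21.2% is therefore much smaller under both of these choices. Of the 12 called genes read by another probe set without those endings, 2 kept their call and 10 did not pass. Some of these probe sets were dim. In 232392_at SRSF3 averaged 189.9 after Ecd siRNA and 141.9 after control siRNA, against 5582.2 and 8077.1 in its brightest. Others were not, as 209068_at of HNRNPDL at 1098.7 and 1060.3. The part of signal level in these counts was not tested.

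**Figure D1:**
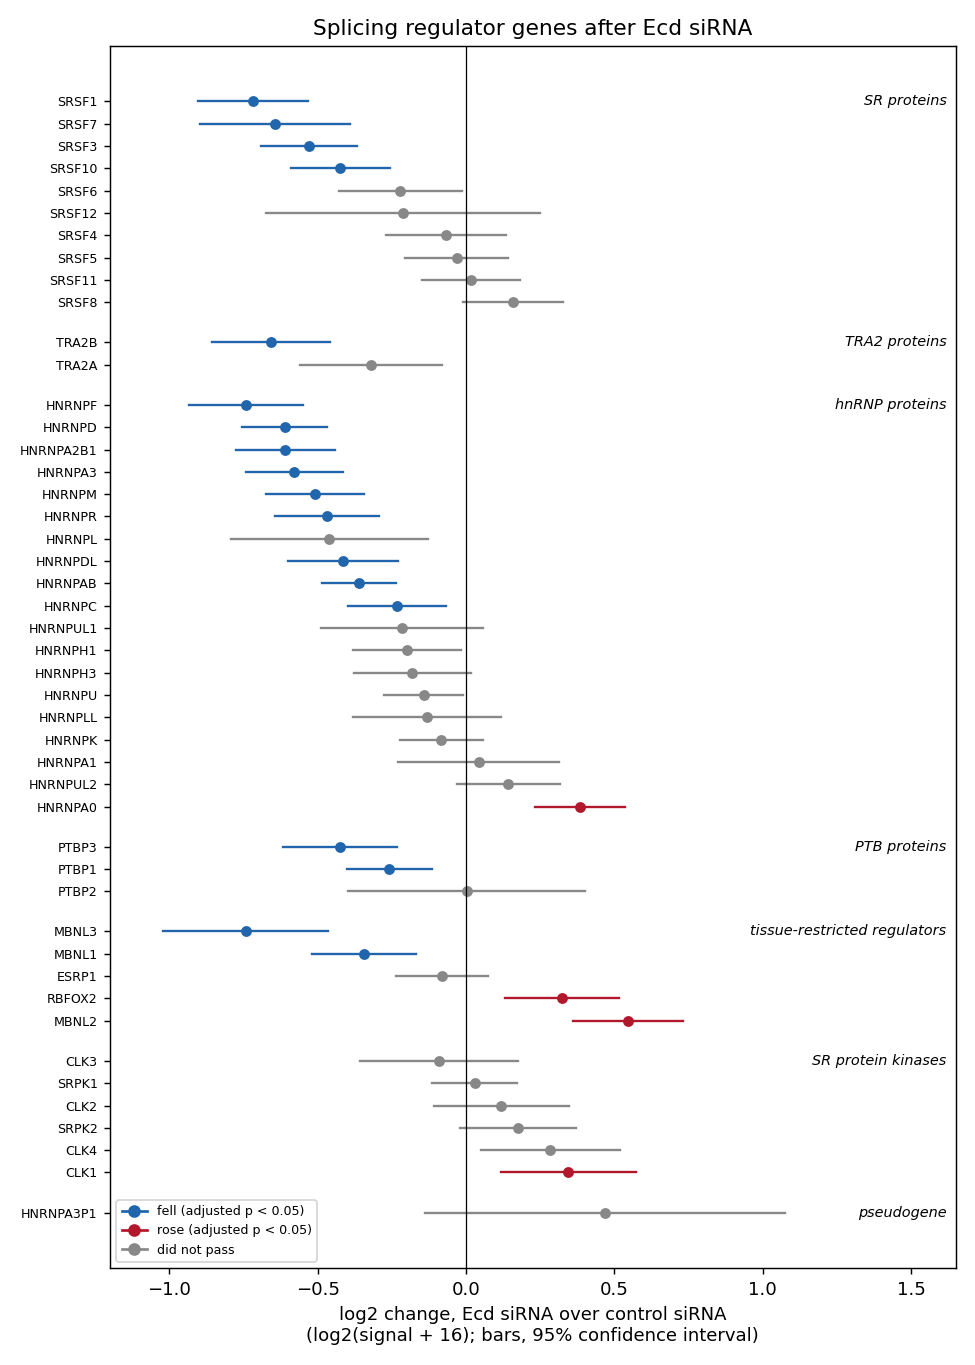
Log2 change (x axis, Ecd siRNA over control siRNA, on the log2(signal + 16) scale) of the 46 tested member genes, 1 row a gene, grouped by family, with 95% confidence intervals. The 18 genes that fell are in blue and lie mainly among the SR and hnRNP proteins, and the 4 that rose are in red.

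Promoter sequence is shown for the SR and TRA2 genes that fell and for the hnRNP gene that rose, where RefSeq (GRCh38.p14) gives the gene a single start. These are the 250 bases upstream of that start, 5′ to 3′ on the gene's strand. Capitals mark matches on either strand to CCAAT (the NF-Y box), CACGTG (the E-box of MYC and its relatives), TGACG (the core of CREB and ATF sites), GGGCGG (the GC box of SP1), TTTGGCGC or TTTCCCGC (E2F-type sites) and TATAAA (the TATA box). The capitals overlap nowhere in these 5 windows.
SRSF1 (chr17:58007247-58007496, minus strand): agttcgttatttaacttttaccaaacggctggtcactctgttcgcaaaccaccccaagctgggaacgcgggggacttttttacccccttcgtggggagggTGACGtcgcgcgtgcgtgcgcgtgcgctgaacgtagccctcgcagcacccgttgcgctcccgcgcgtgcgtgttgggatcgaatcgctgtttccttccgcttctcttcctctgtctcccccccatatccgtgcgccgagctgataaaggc
SRSF3 (chr6:36594112-36594361, plus strand): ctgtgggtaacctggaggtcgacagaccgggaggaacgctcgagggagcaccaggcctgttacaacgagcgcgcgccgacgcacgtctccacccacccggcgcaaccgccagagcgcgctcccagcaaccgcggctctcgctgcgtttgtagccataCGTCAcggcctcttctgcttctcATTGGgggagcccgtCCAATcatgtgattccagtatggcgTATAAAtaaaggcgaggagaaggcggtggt
SRSF10 (chr1:23980328-23980577, minus strand): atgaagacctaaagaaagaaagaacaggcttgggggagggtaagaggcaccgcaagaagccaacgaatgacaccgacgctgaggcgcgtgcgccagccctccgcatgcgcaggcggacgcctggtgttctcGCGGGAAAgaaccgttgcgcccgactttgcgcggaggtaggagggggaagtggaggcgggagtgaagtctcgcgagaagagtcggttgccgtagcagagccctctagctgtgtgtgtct
TRA2B (chr3:185938015-185938264, minus strand): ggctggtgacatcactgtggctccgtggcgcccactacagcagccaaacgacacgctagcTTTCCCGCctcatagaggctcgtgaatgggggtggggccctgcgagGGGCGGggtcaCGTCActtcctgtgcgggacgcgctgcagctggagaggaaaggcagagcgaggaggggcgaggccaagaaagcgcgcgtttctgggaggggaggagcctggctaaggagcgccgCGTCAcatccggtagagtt
HNRNPA0 (chr5:137754364-137754613, minus strand): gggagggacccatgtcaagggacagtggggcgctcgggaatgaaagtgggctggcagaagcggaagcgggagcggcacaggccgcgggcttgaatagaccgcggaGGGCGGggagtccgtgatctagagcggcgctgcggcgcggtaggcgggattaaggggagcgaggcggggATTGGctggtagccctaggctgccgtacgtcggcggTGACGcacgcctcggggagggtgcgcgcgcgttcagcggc

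The 4 windows of genes that fell hold no shared arrangement of these letters. SRSF3 has 2 CCAAT matches, 1 TGACG match and 1 TATAAA match. TRA2B has 1 E2F-type match, 1 GGGCGG match and 2 TGACG matches. SRSF10 has a single E2F-type match and SRSF1 a single TGACG match. HNRNPA0, which rose, has 1 GGGCGG match, 1 CCAAT match and 1 TGACG match.

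The same 250 bases were searched upstream of every start. RefSeq's promoter table held 42 of the 47 member genes, with 68 windows, and all 18 genes that fell, with 27 windows. E2F-type letters were in 3 of those 27 windows (11.1%), in 7.35% of member windows and in 1.93% of the 35116 windows of the whole table. The other shares, in the same order, were 40.7%, 35.3% and 32.0% for CCAAT, 22.2%, 13.2% and 6.34% for CACGTG, and 37.0%, 38.2% and 21.2% for TGACG. They were 59.3%, 57.4% and 42.6% for GGGCGG, and 25.9%, 11.8% and 10.7% for TATAAA. Of the 5 windows of genes that rose (3 genes in the table), 4 held TGACG, 3 GGGCGG and 2 CCAAT. E2F-type letters, CACGTG and TATAAA were in 0 of these 5. The whole table, of 27305 genes, was not limited to genes tested here. Starts of the same gene can overlap, so these windows are not independent, and a match says only that the letters are present.

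Among the SR and TRA2 genes, 5 of 12 tested fell, 0 rose and 7 stayed short of the threshold. Their median log2 change was -0.27. The share called was 41.7%, against 21.2% of all genes tested, where 11.0% fell. Falls in this family numbered 4 with probe sets averaged and 2 with probe sets without an _s, _x or _a ending. SRSF1, the founding SR protein, which also acts in mRNA export and translation, had signals of 2793.2, 3106.7 and 3031.0 in the Ecd siRNA arrays, against 5098.2, 5241.2 and 4414.4 in the control siRNA arrays. All 3 Ecd siRNA arrays lay below all 3 control arrays, at a mean of 2977.0 ± 163.6 against 4917.9 ± 441.9 (SD, n = 3 each; log2 change -0.72, SE 0.08, limma adjusted p = 0.000177). All 8 probe sets of SRSF1 above the filter had changes below 0, and 4 of them passed when every probe set was tested on its own.

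TRA2B, a splicing activator that binds GA-rich exonic enhancers, had signals of 5409.9, 4365.1 and 4272.6 in the Ecd siRNA arrays, against 7316.6, 7385.0 and 7351.2 in the control siRNA arrays. The control arrays were close together and the Ecd siRNA arrays were all lower, with replicate 1 the nearest to them (log2 change -0.66, SE 0.09, limma adjusted p = 0.000491). Its second bright probe set, 200892_s_at, changed by -0.69. TRA2A, the paralog of TRA2B, was at 1615.9 ± 246.8 after Ecd siRNA against 2007.4 ± 70.6 in control cultures, which did not pass (log2 change -0.32, adjusted p = 0.0607).

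SRSF3, a small SR protein that also recruits the export receptor NXF1, had signals of 5570.1, 5501.9 and 5674.6 in the Ecd siRNA arrays, against 8233.8, 8674.3 and 7323.1 in the control siRNA arrays. The groups were well apart (log2 change -0.53, SE 0.07, limma adjusted p = 0.000539). With its probe sets averaged SRSF3 was at -0.23 and did not pass (adjusted p = 0.0827), and in 232392_at it was at 0.37. SRSF7, the close relative of SRSF3 with a zinc knuckle, had 3670.6, 2671.1 and 2871.0 in the Ecd siRNA arrays, against 4995.9, 4982.3 and 4338.1 in the control siRNA arrays (log2 change -0.64, SE 0.11, adjusted p = 0.00261). SRSF7 did not pass in its brightest probe set without an _s or _x ending, 201129_at, which changed by -0.10 (adjusted p = 0.54), nor when its probe sets were averaged (-0.22).

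SRSF10, an SR protein that represses splicing when dephosphorylated, was at 74.5% of the control mean (log2 change -0.42, adjusted p = 0.00258), and all 5 of its probe sets above the filter were below 0. In 204299_at, its brightest probe set without an _s or _x ending, it changed by -0.21 and did not pass (adjusted p = 0.321). Of the SR genes that did not pass, SRSF6 lay at 85.7% of the control mean, SRSF12 at 84.8%, SRSF4 at 95.3%, SRSF5 at 97.9%, SRSF11 at 101.1% and SRSF8 at 111.4%. The 95% confidence interval of the log2 change was -0.21 to 0.14 for SRSF5 and -0.15 to 0.18 for SRSF11, so changes of the size seen in SRSF1 lie outside both.

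Among the hnRNP and PTB genes, the largest group here, 11 of 22 tested fell, 1 rose and 10 were not past the threshold. Their median log2 change was -0.25. The share called was 54.5%, against 21.2% of all genes tested, where 11.0% fell. Falls in this group numbered 5 with probe sets averaged and 5 with probe sets without an _s, _x or _a ending. HNRNPF, a binder of G-tracts, was lowest, with signals of 1999.9, 2131.8 and 2329.2 in the Ecd siRNA arrays, against 3319.1, 3864.3 and 3664.0 in the control siRNA arrays. That left 59.6% of the control mean, with no overlap (log2 change -0.74, SE 0.09, limma adjusted p = 0.00018). HNRNPF has 1 single-symbol probe set, so no second reading of it was available. Its paralog HNRNPH1 was at 87.5% of the control mean and did not pass (adjusted p = 0.119), with Ecd siRNA replicate 3 inside the range of the control arrays.

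HNRNPD, which encodes the AU-rich element binding protein AUF1, had signals of 4068.5, 4096.0 and 4065.4 in the Ecd siRNA arrays, against 5892.1, 6320.8 and 6509.3 in the control siRNA arrays. The Ecd siRNA arrays were almost identical and lay below every control array (log2 change -0.61, SE 0.065, adjusted p = 9.51e-05). Of its 7 probe sets above the filter, 4 passed and were lower on their own, with log2 changes of -0.49 to -0.70. The HNRNPD call was lost when all 9 of its probe sets were averaged (-0.11, adjusted p = 0.495). That mean took in 205183_at and 239040_at, which were below the filter. They averaged 69.0 and 13.6 after Ecd siRNA, against 38.5 and 7.1 after control siRNA. HNRNPDL, its paralog, was at 75.1% of the control mean (adjusted p = 0.00529), but was at 0.05 and did not pass in 209068_at, its brightest probe set without an _s or _x ending. Of the 6 HNRNPDL probe sets above the filter, 3 were below 0. With its probe sets averaged HNRNPDL was at -0.09 and did not pass (adjusted p = 0.455). HNRNPAB, of the same subfamily, fell to 77.8% of the control mean (adjusted p = 0.00112), and like HNRNPF it has 1 single-symbol probe set.

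HNRNPA2B1, a core hnRNP particle protein, had signals of 9135.2, 9995.9 and 10512.7 in the Ecd siRNA arrays, against 15035.0, 13965.7 and 16275.9 in the control siRNA arrays. All Ecd siRNA arrays were lower (log2 change -0.61, SE 0.08, adjusted p = 0.00027), but 225107_at, its brightest probe set without an _s or _x ending, gave -0.33 and did not pass (adjusted p = 0.112). Its second brightest probe set, 225932_s_at, averaged 2465.6 after Ecd siRNA and 2588.1 after control siRNA (log2 change -0.07, adjusted p = 0.634). With its probe sets averaged HNRNPA2B1 was at -0.28 and did not pass (adjusted p = 0.155). HNRNPA3, a paralog, had 1518.2, 1543.3 and 1516.3 in the Ecd siRNA arrays, against 2196.3, 2299.0 and 2369.5 in the control siRNA arrays (log2 change -0.58, SE 0.07, adjusted p = 0.000334). Its other 2 probe sets above the filter, 211929_at and 211930_at, changed by -0.03 and 0.002, and with its probe sets averaged HNRNPA3 was at -0.20 and did not pass (adjusted p = 0.0837).

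HNRNPA1, the most studied antagonist of SRSF1, was read by single-symbol probe sets only at a moderate signal, and many pseudogenes share its sequence. It had signals of 2593.7, 1950.0 and 1839.2 in the Ecd siRNA arrays, against 2162.9, 2039.4 and 1929.5 in the control siRNA arrays. The groups overlapped, with Ecd siRNA replicate 1 the highest and the other Ecd siRNA arrays within or just below the control range (log2 change 0.04, 95% confidence interval -0.23 to 0.31, adjusted p = 0.856). The sign was negative without Ecd siRNA replicate 1, at -0.11.

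HNRNPM, a regulator of exon skipping, had signals of 4250.5, 4235.3 and 4601.5 in the Ecd siRNA arrays, against 5726.6, 6273.7 and 6666.8 in the control siRNA arrays (log2 change -0.51, SE 0.08, adjusted p = 0.000821). A second bright probe set of HNRNPM, 200072_s_at, changed by -0.73, while 1555843_at was at 0.13 (adjusted p = 0.64), and with its probe sets averaged HNRNPM was at -0.23 (adjusted p = 0.225). HNRNPR had signals of 5065.2, 4601.2 and 5500.6 in the Ecd siRNA arrays, against 6672.3, 7383.6 and 6915.7 in the control siRNA arrays (log2 change -0.47, SE 0.08, adjusted p = 0.00183). For both genes the groups were apart in the brightest probe set. HNRNPR did not pass in 232004_at, which averaged 136.1 after Ecd siRNA and 134.5 after control siRNA (log2 change -0.07, adjusted p = 0.923).

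HNRNPC, which measures transcript length and masks cryptic exons in Alu repeats, was at 84.9% of the control mean, just past the threshold (adjusted p = 0.0486). Its call was lost under 10 of 17 other settings, leaving out Ecd siRNA replicate 1, 2 or 3 or control siRNA replicate 1 or 2 among them. HNRNPL was at 71.9% of the control mean but its groups overlapped and it did not pass (adjusted p = 0.0525). HNRNPK, HNRNPU, HNRNPLL, HNRNPH3, HNRNPUL1 and HNRNPUL2 did not pass either, with means between 87.0% and 110.4% of control.

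HNRNPA0 was the hnRNP gene that rose. It encodes a relative of HNRNPA1 that binds AU-rich mRNA, and it had signals of 5068.1, 4997.5 and 5244.9 in the Ecd siRNA arrays, against 3708.5, 3871.4 and 4159.7 in the control siRNA arrays. All Ecd siRNA arrays were higher, at 130.4% of the control mean (log2 change 0.38, SE 0.07, adjusted p = 0.00266). A second probe set, 229083_at, rose on its own by 0.43, and the third, 201055_s_at, was at -0.31 and did not pass. As the mean of the 3 probe sets HNRNPA0 was at 0.17 and did not pass (adjusted p = 0.271).

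PTBP3, the PTB paralog first described in blood cells, had signals of 3485.3, 3483.0 and 3739.6 in the Ecd siRNA arrays, against 4761.0, 4308.4 and 5364.9 in the control siRNA arrays (log2 change -0.42, SE 0.09, adjusted p = 0.00558). The groups did not overlap, and all 5 probe sets above the filter were below 0. PTBP1 had 4880.7, 4501.1 and 4919.8 in the Ecd siRNA arrays, against 5764.2, 5547.9 and 5800.3 in the control siRNA arrays. The fall of PTBP1 was small (log2 change -0.26, SE 0.07, adjusted p = 0.017) and was lost without Ecd siRNA replicate 2 and without control siRNA replicate 1 or 3. The PTBP1 call was also lost after normalization to a common median (adjusted p = 0.109) and without the intensity trend in the variance model (adjusted p = 0.0867). With all 4 of its probe sets averaged PTBP1 was at 0.23 and did not pass (adjusted p = 0.354). The others in that mean were dim. After Ecd siRNA and control siRNA, 231158_x_at averaged 196.7 and 90.1, and 226491_x_at averaged 165.7 and 136.1. Probe set 236819_at was below the filter, at 16.6 and 17.7. PTBP2, the neuronal paralog, was at 101.9% of the control mean with overlapping groups.

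**Figure D2:**
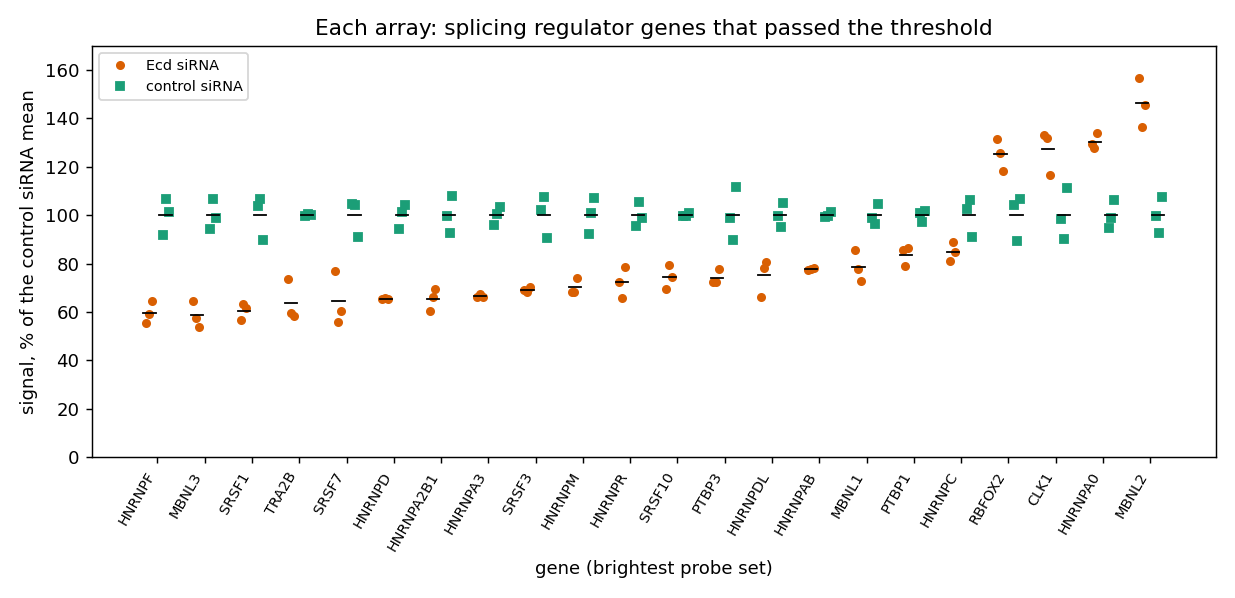
Signal of the 22 genes that passed the threshold in each array, as a percentage of the control siRNA mean (y axis), with Ecd siRNA left and control siRNA right for each gene and a line at each group's mean. In all 22 genes the 3 Ecd siRNA arrays lie wholly on 1 side of the 3 control arrays. The genes were picked by a test on these same arrays, so this separation is not separate evidence.

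Regulators that set cell type patterns went both ways. MBNL proteins bind UGC-containing motifs and promote adult splicing patterns. MBNL2 rose, with signals of 4047.7, 3529.8 and 3768.2 in the Ecd siRNA arrays, against 2579.8, 2396.5 and 2780.2 in the control siRNA arrays. That was 146.3% of the control mean with no overlap (log2 change 0.55, SE 0.08, adjusted p = 0.000973), and 3 of its 5 probe sets above the filter rose on their own. With its probe sets averaged MBNL2 was at 0.37 and still passed (adjusted p = 0.0265).

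MBNL3 fell, with signals of 348.7, 309.4 and 290.7 in the Ecd siRNA arrays, against 509.5, 575.2 and 533.6 in the control siRNA arrays (log2 change -0.74, SE 0.13, adjusted p = 0.00189). Its 2 dimmer probe sets, 219814_at and 230113_at, were at -0.14 and 0.40 and did not pass, and the mean of the probe sets was at -0.16 (adjusted p = 0.575). MBNL1 had signals of 3214.3, 2926.7 and 2736.6 in the Ecd siRNA arrays, against 3718.6, 3624.8 and 3931.3 in the control siRNA arrays. The groups were apart (log2 change -0.35, SE 0.08, adjusted p = 0.0105), and 3 of its probe sets were lower on their own. The MBNL1 call was lost when its probe sets were averaged, in probe sets without an _s, _x or _a ending (-0.14, adjusted p = 0.669) and without the intensity trend in the variance model. The difference in response between the MBNL paralogs was not tested.

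RBFOX2, which binds UGCAUG and acts in epithelial and mesenchymal splicing programmes, had signals of 3357.5, 3203.9 and 3014.7 in the Ecd siRNA arrays, against 2655.2, 2275.3 and 2727.0 in the control siRNA arrays. All Ecd siRNA arrays were higher (log2 change 0.32, SE 0.09, adjusted p = 0.0236), and 216215_s_at was higher on its own by 0.54 (adjusted p = 0.011). Another bright probe set, 213901_x_at, was at 0.13 with overlapping groups and did not pass (adjusted p = 0.383). The RBFOX2 call was lost without Ecd siRNA replicate 1 or 2 or control siRNA replicate 1 or 2, with log2 changes of 0.24 to 0.37 over the arrays left out in turn. It was also lost after normalization to a common median (adjusted p = 0.0954) and without the intensity trend in the variance model (adjusted p = 0.0897). In 213898_at, its only probe set without an _s or _x ending, RBFOX2 did not pass (adjusted p = 0.137), and that probe set was below the filter in control cultures, at a mean of 78.9. ESRP1, the epithelial regulator, had signals of 4361.7, 4855.2 and 4888.5 in the Ecd siRNA arrays, against 4845.7, 4901.7 and 5157.3 in the control siRNA arrays. The groups overlapped, and the 95% confidence interval of the log2 change was -0.24 to 0.08 (adjusted p = 0.487).

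Among the SR protein kinases, 1 of 6 tested rose, 0 fell and 5 were not past the threshold. The share called, 16.7%, was no higher than the 21.2% of all genes tested. Their median log2 change was 0.15. CLK1, a nuclear kinase that releases SR proteins from speckles, had signals of 1473.5, 1457.9 and 1291.4 in the Ecd siRNA arrays, against 1090.5, 998.8 and 1231.2 in the control siRNA arrays. It rose with no overlap (log2 change 0.35, SE 0.10, adjusted p = 0.0362), though the call was lost under 6 of 17 other settings, including leaving out Ecd siRNA replicate 1 or 2 or control siRNA replicate 1 or 2. CLK1 has 1 single-symbol probe set, which did not pass in the test over all probe sets (adjusted p = 0.0541). CLK4, its closest paralog, was at 122.4% of the control mean without overlap and did not pass (adjusted p = 0.0855). CLK2 was at 108.7%, CLK3 at 94.4% and SRPK2 at 113.1%.

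SRPK1, the main cytoplasmic SR kinase, had signals of 4456.8, 4121.6 and 4182.2 in the Ecd siRNA arrays, against 4203.8, 4155.8 and 4136.6 in the control siRNA arrays. The groups overlapped, and the 95% confidence interval of the log2 change was -0.11 to 0.17 (adjusted p = 0.807). The pseudogene HNRNPA3P1 was at 142.8% of the control mean with overlapping groups (adjusted p = 0.276), and HNRNPD-DT was below the filter in both groups, at means of 51.6 and 82.5.

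Most of these genes have several probe sets, and 152 of the 174 member probe sets were above the filter. Tested each on its own, 37 were lower, 8 were higher and 107 did not pass. That is 29.6% called, against 15.0% of all 32772 probe sets tested, where 7.66% were lower and 7.33% higher. Of these 152, 4 reached the filter only through the group where they were higher (1 each of HNRNPA1, MBNL1, PTBP1 and RBFOX2), and none of the 4 passed. HNRNPH3 and HNRNPU, which were not called by their brightest probe sets, held lower ones, with 207127_s_at of HNRNPH3 at -0.51 (adjusted p = 0.00191) and 200593_s_at of HNRNPU at -0.38 (adjusted p = 0.0128). In SRSF8, 213152_s_at was higher by 0.35 (adjusted p = 0.0492).

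**Figure D3:**
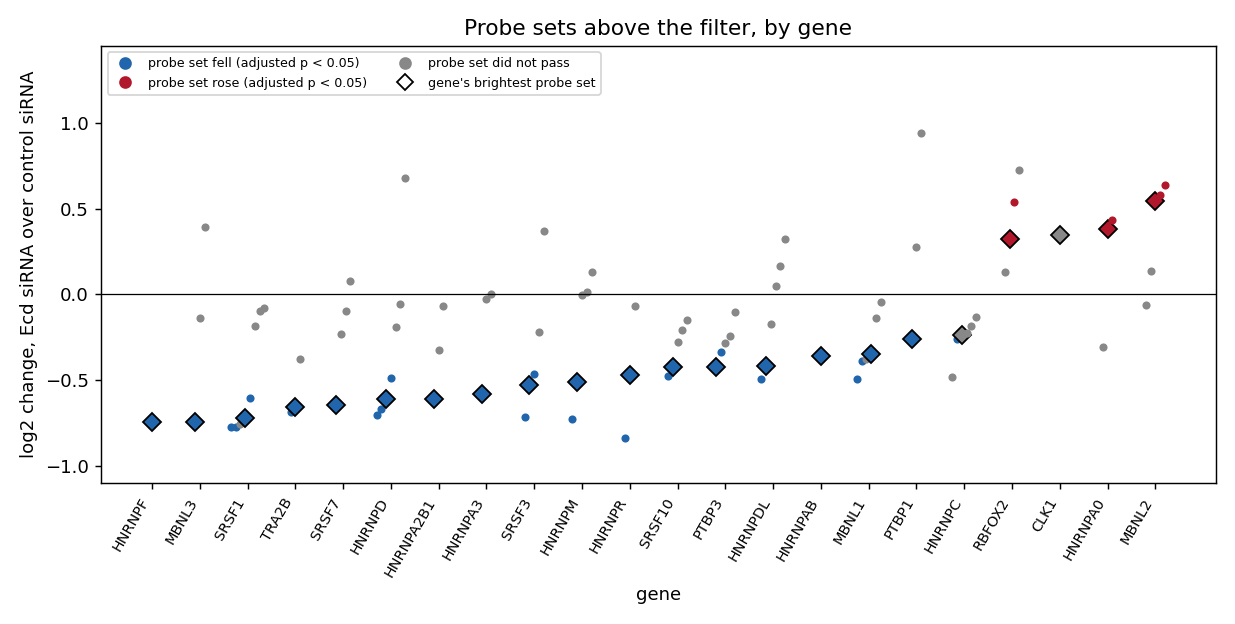
Log2 change (y axis, Ecd siRNA over control siRNA) of each probe set above the filter in the 22 called genes, coloured by its own test across all probe sets, with the brightest of each gene as a diamond. SRSF1, TRA2B and PTBP3 have all points below 0, while SRSF3, HNRNPD, HNRNPDL and HNRNPM have points on both sides.

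Whether probe sets of a gene changed unequally was tested on the within-array difference between each further probe set and the gene's brightest. Of 106 such pairs in 40 member genes, 4 passed, 3.77%, against 0.822% of the 12416 pairs on the array, and in all 4 the difference was higher after Ecd siRNA. All 4 were just past the threshold, and at most 1 was called when any 1 array was left out.

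In HNRNPDL the difference between 212454_x_at and the brightest probe set was -1.07, -1.18 and -1.24 in the Ecd siRNA arrays, against -1.67, -1.79 and -1.76 in the control siRNA arrays, in log2 units. The shift was 0.58 (SE 0.09, adjusted p = 0.0306). In HNRNPD the difference for 213359_at was -4.44, -4.48 and -4.45 in the Ecd siRNA arrays, against -6.02, -5.96 and -5.26 in the control siRNA arrays (shift 1.29, SE 0.21, adjusted p = 0.0306). In both genes every Ecd siRNA array lay above every control array. The HNRNPD probe set was dim, with signals of 172.6, 168.8 and 170.5 after Ecd siRNA and 75.1, 86.0 and 153.8 after control siRNA.

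In HNRNPA2B1 the difference for 225932_s_at was -1.80, -2.08 and -2.10 in the Ecd siRNA arrays, against -2.54, -2.48 and -2.58 in the control siRNA arrays (shift 0.54, SE 0.10, adjusted p = 0.0479). In SRSF3 the difference for 232392_at was -4.53, -4.80 and -5.00 in the Ecd siRNA arrays, against -5.68, -5.84 and -5.51 in the control siRNA arrays (shift 0.90, SE 0.17, adjusted p = 0.0497). SRSF3 signals in 232392_at were 225.3, 182.2 and 162.2 after Ecd siRNA and 144.8, 136.0 and 145.0 after control siRNA, so this probe set moved opposite to the brightest, without passing on its own (adjusted p = 0.275). Which exons these probe sets read was not analysed here.

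**Figure D4:**
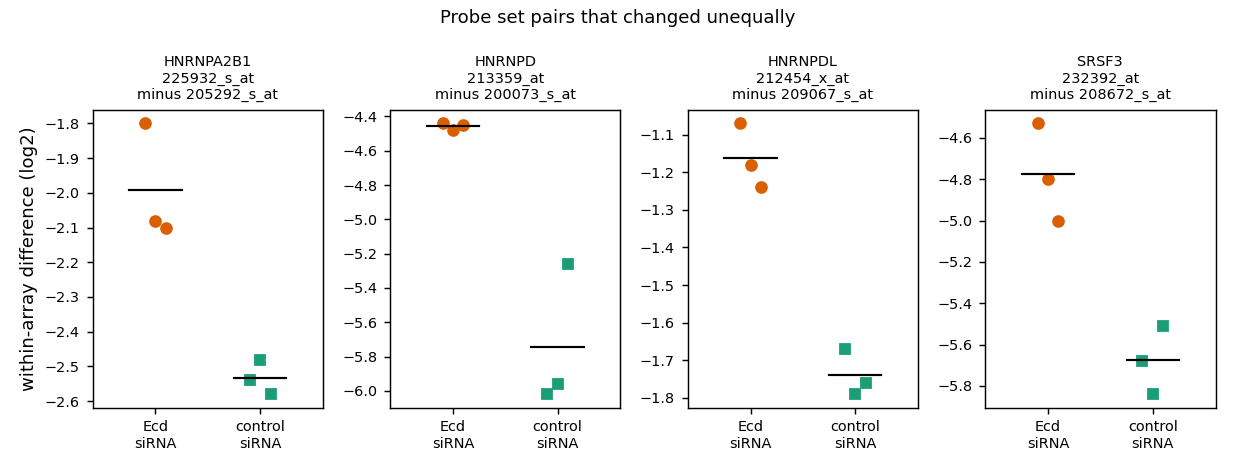
Within-array log2 difference (y axis) between a further probe set and the brightest one of the same gene, for the 4 pairs that changed unequally, with Ecd siRNA left and control siRNA right, 1 point an array and a line at the mean. In each panel the 3 Ecd siRNA arrays lie above the 3 control arrays. The pairs were picked by a test on these same arrays, so this separation is not separate evidence.

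Other splicing regulators fell more often than they rose. Of 48 tested, 14 fell, 3 rose and 31 were not past the threshold, which is 35.4% called, against 21.2% of all genes tested. Their median log2 change was -0.19. SFPQ, a paraspeckle protein that also acts with PTB, fell most clearly, with signals of 2840.6, 2523.0 and 3088.9 in the Ecd siRNA arrays, against 5389.9, 5661.5 and 5539.9 in the control siRNA arrays (log2 change -0.97, SE 0.08, adjusted p = 1.9e-05). U2SURP, an SR-related protein of the U2 snRNP, changed by -0.50 (adjusted p = 0.00138). The rises were those of RBM4 (1.03, adjusted p = 0.00149), CELF2 (0.82) and CIRBP, the cold-inducible RNA binding protein gene (0.66, adjusted p = 0.00063).

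Among enzymes and importers that act on SR and hnRNP proteins, 4 of 18 fell, 1 rose and 13 were not past the threshold, which is 27.8% called, near the 21.2% of all genes tested. Their median log2 change was -0.18. WDR77, the partner of the arginine methyltransferase PRMT5, changed by -0.64 (adjusted p = 0.000761), the phosphatase gene PPP1CC by -0.35 (adjusted p = 0.00401) and PRMT1, which methylates hnRNPs, by -0.31 (adjusted p = 0.00739). DYRK1B, a kinase gene, was the 1 that rose (0.94, adjusted p = 0.0132). Of 13 nonsense-mediated decay factors, 3 fell, 1 rose and 9 were not past the threshold, which is 30.8% called at a median log2 change of -0.007. With 13 genes that share is near the 21.2% of all genes tested. NCBP1, a cap-binding protein gene, was at -0.36 (adjusted p = 0.011), MAGOHB at -0.50 (adjusted p = 0.0439) and EIF4A3, of the exon junction complex, at -0.22 (adjusted p = 0.0365), while SMG6, the endonuclease gene, was at 0.45 (adjusted p = 0.034). SMG1 was not analysed here.

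Several fibroblast markers rose beside these changes. Of 21 on the array, 14 were above the filter, and 7 of those rose and 0 fell. The rises were those of LOX (1.38), FAP (1.03), COL6A1 (0.906), COL5A1 (0.895), MMP2 (0.785), FBN1 (0.658) and COL1A1 (0.525), in log2 units. COL1A2, COL6A2, DCN, THY1, TWIST1, TWIST2 and PRRX1 did not pass. The summed signal of the 21 was 23017 to 24828 in the Ecd siRNA arrays and 13382 to 14082 in the control siRNA arrays. None was listed at 0, and COL3A1, COL6A3, LUM, PDGFRA, PDGFRB, POSTN and DPT were below the filter. Epithelial markers summed to 151576 to 161042 in the Ecd siRNA arrays and 140244 to 148155 in the control siRNA arrays, with 6 of 16 rising and 1, KRT18, falling. The share of epithelial markers called was 43.8%, against the same 21.2%. The part of fibroblast markers in the rises of MBNL2, RBFOX2 and CELF2 was not tested.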

How the data were processed

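The authors deposited linear MAS5 intensities, 1 for each probe set on each array, per the submitters' processing notes. Neither the MAS5 version nor its scaling target is given in the sources used here. Their trimmed mean (percentiles 2 to 98) was 500.06 on every array, so these values cannot show a shift common to the whole transcriptome. The table held 54675 probe sets with 0 missing values and no detection calls. Probe sets were named from GEO's platform annotation, in which 41091 had 1 symbol, 1801 several and 11721 none, beside 62 controls. Gene IDs of 41037 matched RefSeq (GRCh38.p14), with 0 symbols updated.

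Groups came from the sample titles. Values were taken as log2(signal + 16), which understates changes of dim transcripts. A gene was read by its single-symbol probe set with the highest mean, and features in the upper 60% by mean intensity (90.2 or more) were tested. The Ecd siRNA and control siRNA groups were compared by limma 3.58.1 under R 4.3.3 (lmFit, then eBayes with an intensity trend, no covariates), with Benjamini-Hochberg adjustment over all 14614 genes, 32772 probe sets or 12416 pairs. The fits were tested on simulated data. Values of each array were given for the 12 largest falls, all 4 rises and a few genes always included, up to 4 genes were named per further list, and others complete a count or family. Members, lists and this rule were chosen with earlier results of these data known.

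The replicates are labelled biological. The spread behind the p-values is that of these 6 cultures, and the number of arrays limits precision. No scan dates were available here. The sample titles do not say whether replicate numbers pair the arrays, and the main fit took no pairs. The alternatives were pseudocounts of 1 and 64, quantile and common-median normalization, no filter or the upper 40%, the mean of probe sets, probe sets without _s, _x or _a, no trend, array weights, a replicate block and each array left out.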

Additional observations from a re-analysis of the deposited data

How the results depend on the processing

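The members' median log2 change was negative under each of the 17 alternatives. It was -0.188 with a pseudocount of 64, -0.222 after quantile normalization, -0.117 for the mean of probe sets and -0.084 for probe sets without _s, _x or _a, and -0.23 to -0.163 with each array left out. Genes that fell numbered 9 for the mean of probe sets and 8 for probe sets without those endings, and 16 to 20 with an array left out. For SR and TRA2 genes they numbered 2 without those endings and 5 to 6 with an array left out, and for hnRNP and PTB genes 5, 5 and 9 to 12. Rises numbered 2 with common medians, 2 without the trend and 2 to 4 with an array left out, and 0 among hnRNP and PTB genes for the mean of probe sets. Member probe sets that rose numbered 5 with common medians, 2 without the trend and 5 to 8 with an array left out. Those that fell numbered 26 without the trend, 40 with the replicate block and 31 to 39 with an array left out. Unequal pairs numbered 2 with a pseudocount of 1, 1 without a filter, 2 in the upper 40%, 0 without the trend, 0 with the replicate block and 0 to 1 with an array left out. Signs turned for HNRNPA1 (-0.011 for the mean of probe sets, -0.012 with array weights, -0.108 to 0.139 with an array left out), PTBP1 (0.228 for the mean), HNRNPDL (0.049), HNRNPM (0.131) and SRSF3 (0.372) without those endings, and SRPK1 (-0.005 to 0.052 with an array left out). Apart from what these definitions change by themselves, the cause was not tested. ECD was at -0.849 to -0.779 with an array left out.

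Same-numbered arrays correlated at 0.005, 0.083 and 0.112 in their deviations from the group means, and differently numbered arrays at -0.096 to 0.014. These small values do not settle whether the arrays were paired, and the numbers were not taken as pairs in the main fit. With the replicate block 4 members rose, 19 fell and ECD was at -0.822 (limma adjusted p = 0.000406). Dim probe sets near the filter give the least certain values, and the files used hold no detection calls.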
